A study of Marchantia polymorpha with 6 samples.

Results

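MpDIR20 (Mp6g12700) and MpDIR37 (Mp5g16880) are dirigent protein genes of the liverwort Marchantia polymorpha, on chromosomes 6 and 5. These 2 of the 19472 genes counted were chosen because their transcripts went opposite ways in plants grown with arsenite, so their difference between the groups is given below as a description, without a test. Gene expression had been measured by RNA sequencing of poly(A) RNA from the thallus, the flat plant body, in 2 groups of 3 samples. The treated plants grew at 21 °C with 2.5 µM sodium arsenite, As(III), a trivalent form of arsenic, added to a diluted Gamborg medium, and the control plants grew on this medium without it. All 6 samples carry the genotype label Cam1, a male wild-type accession. Neither the time on arsenite nor whether the samples were separate cultures is stated in the sources used here, so the spread between samples may be technical in part.

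Dirigent proteins are secreted proteins without oxidising activity of their own. In vascular plants, members of the family hold phenoxy radicals made by laccases or peroxidases so that they couple with a fixed geometry, which gives lignans of one handedness. The radicals come from phenolic compounds of the phenylpropanoid pathway, whose entry enzyme is phenylalanine ammonia-lyase. Liverworts couple phenolics into bisbibenzyls and other compounds, and the sources used here give no substrate or product for MpDIR20 or MpDIR37.

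Library totals were between 26579324 and 47532310 reads. Per library, 62663 to 113154 reads fell on V-linked genes, carried by males, and 46 to 158 on U-linked genes, carried by females. The first principal component of the 500 most variable genes held 59.4% of the variance and separated the groups. Along the second component, with 22.4% of the variance, arsenite replicate 3 lay on the opposite side of 0 from arsenite replicates 1 and 2. Of 13544 genes with enough reads for a test, 4.18% passed the threshold of 0.05 on the adjusted p, but 39 genes in all passed without arsenite replicate 2. Levels are given as CPM, reads per 1000000 after scaling of the libraries.

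Among the 39 dirigent genes with enough reads for a test, MpDIR20 had the highest fold change, arsenite over control. It had 22.7, 35.98 and 31.5 CPM in arsenite replicates 1, 2 and 3, against 10.9, 6.69 and 11.5 CPM in control replicates 1, 2 and 3. Every arsenite library lay above every control library, which was the case for 13.8% of all 13544 tested genes. The mean was 30.1 ± 6.76 CPM with arsenite and 9.68 ± 2.61 CPM in controls (SD, n = 3 each). Expressed as log2 of arsenite over control, as throughout, the difference was 1.63 ± 0.26 (SE), which is 3.10-fold, and its 95% interval ran from 1.03 to 2.24. Between the lowest arsenite library and the highest control library lay 0.98 log2 units. In a bulk sample, fewer cells of a type and less RNA per cell cannot be told apart, and this holds for every level given here.

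MpDIR37 had 55.0, 61.3 and 54.1 CPM in arsenite replicates 1, 2 and 3, against 137, 142 and 118 CPM in control replicates 1, 2 and 3. Every arsenite library lay below every control library, which 14.4% of all tested genes showed. The mean was 56.8 ± 3.94 CPM with arsenite and 132 ± 13.0 CPM in controls (SD, n = 3 each). This gave -1.22 ± 0.11 (SE) on the log2 scale, or levels 2.33-fold higher in controls, and the 95% interval ran from -1.49 to -0.96. The nearest libraries of the groups were -0.94 log2 units apart, close in size to the gap of MpDIR20.

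**Figure D1:**
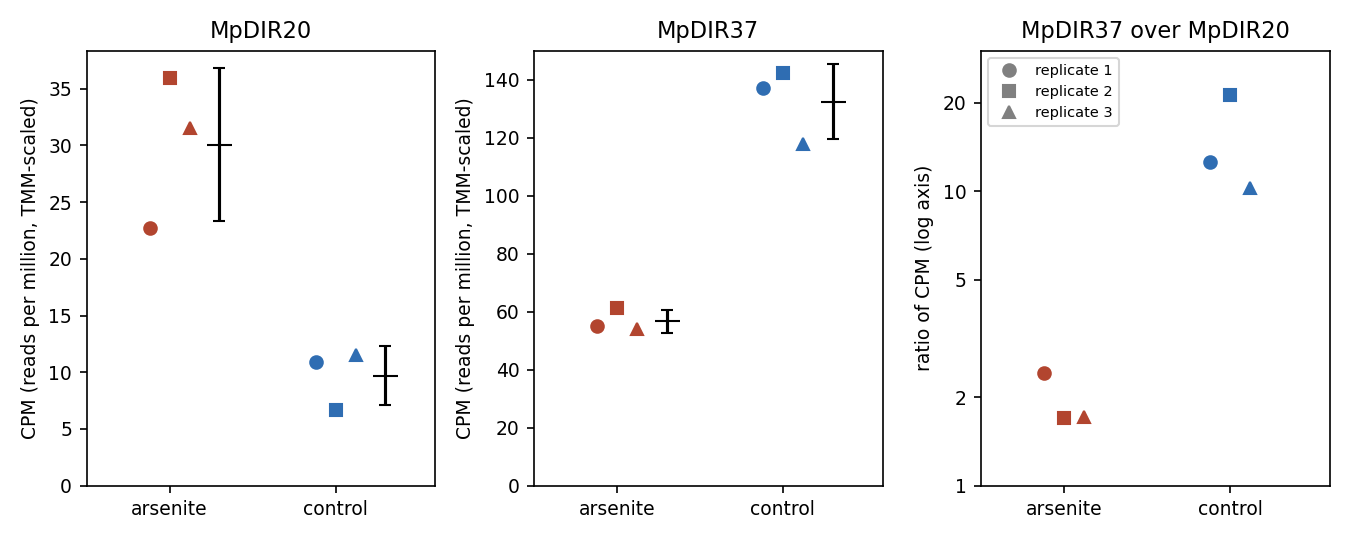
Levels of MpDIR20 and MpDIR37 in CPM (linear axes from 0) and their ratio within each library (log axis), with arsenite libraries left of control libraries. Symbols are single libraries by replicate number, and horizontal marks with bars are the mean ± SD (n = 3 each). The groups do not overlap in any panel, and the ratio of MpDIR37 to MpDIR20 is 1.70 to 2.42 with arsenite and 10.3 to 21.3 in controls.

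MpDIR20 varied more between replicates than MpDIR37. Its coefficient of variation was 22.5% in arsenite libraries and 26.9% in control libraries, while that of MpDIR37 was 6.95% in arsenite libraries and 9.79% in control libraries. MpDIR20 was counted by 711 to 1063 reads per arsenite library and 175 to 530 reads per control library, and MpDIR37 by 1407 to 1811 reads per arsenite library and 3728 to 6686 reads per control library. Counting error alone is at most 7.56% of any of these values, and it was largest for MpDIR20 in control replicate 2. That library was the lowest control for MpDIR20 and the highest control for MpDIR37.

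The ratio of the pair within a library does not depend on how libraries are scaled. The reads of MpDIR37 were 2.42, 1.70 and 1.71 times those of MpDIR20 in arsenite replicates 1, 2 and 3, against 12.6, 21.3 and 10.3 times in control replicates 1, 2 and 3. The ratio is one of read counts and not of transcript numbers, because transcript lengths were not used here. On the log2 scale the ratio of MpDIR20 to MpDIR37 averaged -0.94 ± 0.29 with arsenite and -3.81 ± 0.54 in controls (SD, n = 3 each), a difference of 2.87, or 7.31-fold. MpDIR20 made up 1.48% ± 0.31 of all dirigent reads with arsenite and 0.406% ± 0.12 in controls, while MpDIR37 made up 2.80% ± 0.20 with arsenite and 5.55% ± 0.87 in controls.

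The dirigent family had 59 genes with a symbol, 57 of them besides the chosen pair. Of these 57, 37 had enough reads to be tested and 20 did not. Unless another tool is named, adjusted p-values come from edgeR's quasi-likelihood test, adjusted by the Benjamini-Hochberg method across every gene tested. By this test 3 of the 37 fell (8.11%), 0 rose and 34 did not pass. Over all 13544 tested genes 2.14% fell and 2.04% rose. At an unadjusted p under 0.05, 4 of the 37 were higher and 13 lower, beside 10.8% and 10.3% of all tested genes. DESeq2 gave an adjusted p for 34 of the 37 and called 3 higher and 7 lower, beside 6.34% and 5.5% of all genes it tested. With voom 0 were higher and 1 lower, beside 1.99% and 1.93%. At an adjusted p under 0.01 edgeR called 0 in either direction, beside 0.17% higher and 0.251% lower. The median log2 fold change of the 37 was -0.24, beside -0.004 over all tested genes, with 28 negative and 9 positive. Every arsenite library lay below every control library for 12 of the 37 (32.4%), beside 14.4% of all tested genes, and above for 4 (10.8%), beside 13.8%. The members that passed a filter on low reads are not the whole family. Among those lower with arsenite, 5 on chromosome 3, MpDIR44 and MpDIR64 included, passed this filter only through their control libraries. Their place in the lower counts is therefore not independent of the filter. No test compared the family with other genes.

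The genes that fell were MpDIR49, MpDIR44 and MpDIR64. MpDIR49 had 1.63, 3.62 and 2.42 CPM in arsenite replicates 1, 2 and 3, against 17.2, 9.59 and 26.4 CPM in control replicates 1, 2 and 3. Its log2 fold change was -2.79 ± 0.44 (SE, adjusted p = 0.0247). MpDIR44 and MpDIR64 belong to a run of 6 dirigent genes on chromosome 3 with MpDIR48, MpDIR47, MpDIR46 and MpDIR45. In each of these 6 genes every arsenite library lay below every control library, and 5 had enough reads for the test. These 5, MpDIR44 and MpDIR64 among them, met the low-count filter only through their control libraries, so their direction is not a result of its own. Summed over the run, levels were 0.894, 1.49 and 2.00 CPM in arsenite replicates 1, 2 and 3, against 15.4, 10.7 and 203 CPM in control replicates 1, 2 and 3, so that 1 control library stood far above the others. MpDIR44 had 5 reads in all arsenite libraries together and 346 in controls, a ratio of 0.0178 with a 95% interval from 0.00573 to 0.0419 that covers counting error only (adjusted p = 0.0397). MpDIR64 had 7 reads in arsenite libraries and 386 in controls, a ratio of 0.0223 with an interval from 0.00891 to 0.0464 (adjusted p = 0.0410). Control replicate 3 held 71.1% of the control reads of MpDIR44 and 74.6% of those of MpDIR64.

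Whether these genes passed the test changed when single libraries were left out, as did the share of all tested genes that fell. Among the dirigent genes other than the chosen pair, the number that fell was 0, 0 and 1 when arsenite replicate 1, 2 or 3 was left out, and 0, 1 and 2 when control replicate 1, 2 or 3 was left out. In the same order, the share of all tested genes that fell was 1.21%, 0.168%, 1.67%, 0.512%, 0.707% and 0.695%. MpDIR49 lost its call without arsenite replicate 1 or 2 or control replicate 1 or 3, with adjusted p of 0.0531, 0.0765, 0.0791 and 0.0590. MpDIR44 lost it without any 1 library, and MpDIR64 without any 1 library but control replicate 3. With a library left out the log2 fold changes ran from -3.13 to -2.39 for MpDIR49, from -6.56 to -4.44 for MpDIR44 and from -5.95 to -3.91 for MpDIR64, with no change of sign. For MpDIR20 they ran from 1.43 to 1.82 and for MpDIR37 from -1.30 to -1.17, which is a description, since the pair was chosen on this contrast.

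**Figure D2:**
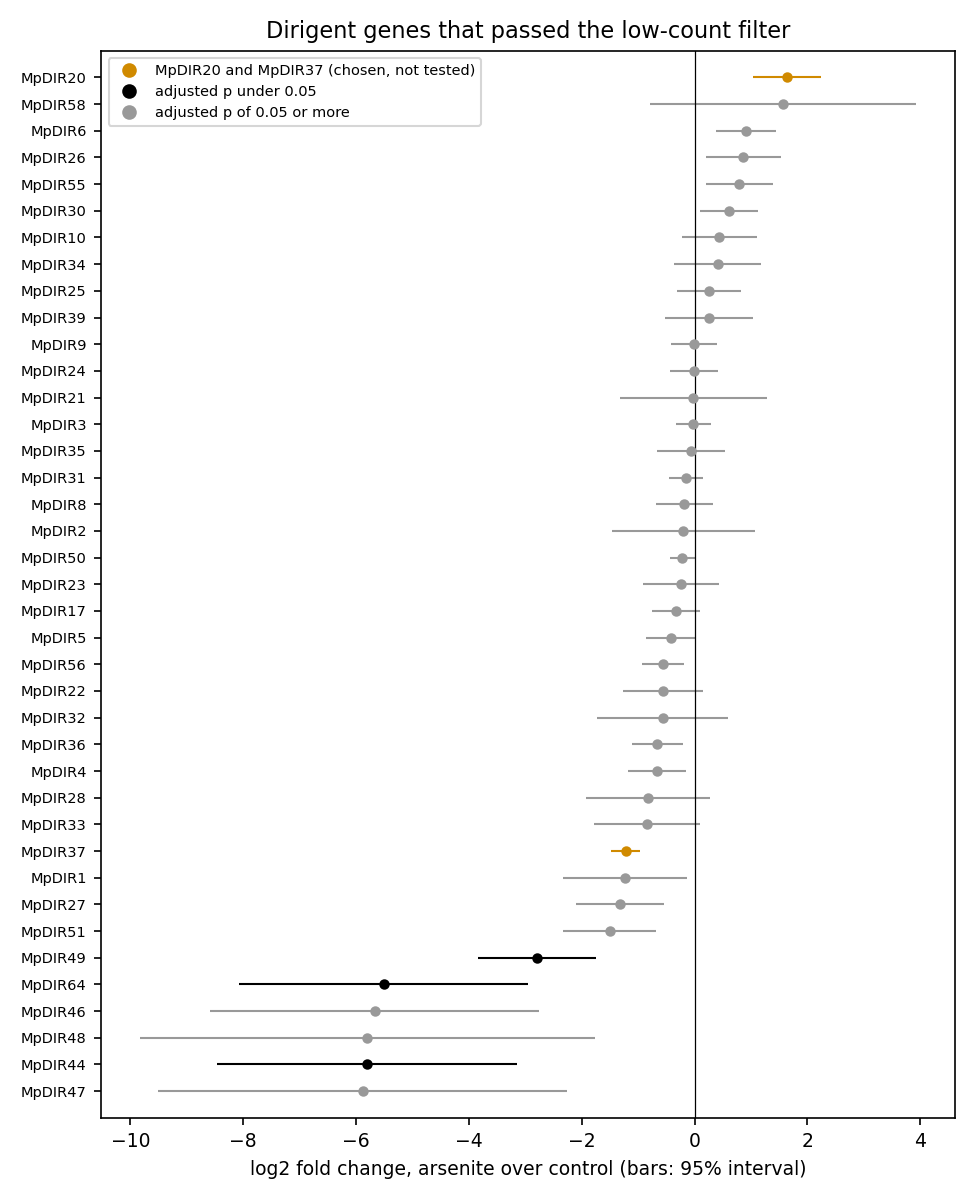
Log2 fold changes, arsenite over control, of the 39 dirigent genes with enough reads, ordered by value, with 95% intervals from the edgeR fit. MpDIR20 is at the top, MpDIR37 has 9 genes below it, and the chromosome 3 genes at the bottom have the widest intervals on the negative side.

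Among the 39 dirigent genes with enough reads, MpDIR20 was the first from the top by fold change and MpDIR37 the 10th from the bottom. Over all 13544 tested genes MpDIR20 was 223rd from the top and MpDIR37 351st from the bottom. MpDIR27, MpDIR1 and MpDIR51 had fold changes below that of MpDIR37 on the log2 scale, at -1.33, -1.23 and -1.51, but did not pass (adjusted p = 0.0757, 0.191 and 0.0632). The positive side was led after MpDIR20 by MpDIR58, MpDIR6 and MpDIR26 with log2 fold changes of 1.56, 0.91 and 0.86 (adjusted p = 0.411, 0.0734 and 0.143). These 6 genes are named for their place in the order and were chosen after their values were seen.

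MpDIR37 ranked 7th and MpDIR20 15th among the 59 dirigent genes by mean CPM, which counts reads and is not corrected for length. The genes with more reads than MpDIR37 were MpDIR17, MpDIR50, MpDIR9, MpDIR3, MpDIR10 and MpDIR5, and none of these 6 passed the test. MpDIR17 took the most reads, with 566 ± 16.3 CPM with arsenite and 709 ± 162 CPM in controls (SD, n = 3 each; log2 difference -0.33 ± 0.18, adjusted p = 0.346). MpDIR50 had 229 ± 13.3 CPM with arsenite and 267 ± 5.37 CPM in controls (log2 fold change -0.22 ± 0.09, adjusted p = 0.237). MpDIR9 and MpDIR3 had log2 fold changes of -0.005 and -0.02, whose signs turned in some alternative fits, MpDIR10 had 0.44 and MpDIR5 had -0.42.

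CPM summed over the 57 other dirigent genes was 1900, 1942 and 1989 in arsenite replicates 1, 2 and 3, against 2030, 2324 and 2431 in control replicates 1, 2 and 3. The mean was 1944 ± 44.5 CPM with arsenite and 2262 ± 208 CPM in controls (SD, n = 3 each), a ratio of 0.859. The groups did not overlap, and an exact two-sided permutation test gave p = 0.1. This is the smallest value that 3 against 3 allows and the one that any groups without overlap give, so it adds nothing to that. Without the chromosome 3 run the ratio was 0.889. The 3.10-fold and 2.33-fold differences of MpDIR20 and MpDIR37 stood beside this summed level of their family.

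MpDIR37 is the outermost gene of another run, of 6 dirigent genes side by side on chromosome 5 in the order MpDIR37, MpDIR36, MpDIR35, MpDIR34, MpDIR33 and MpDIR32. All 6 had enough reads, and 5 had negative fold changes. MpDIR36, next to MpDIR37, had 64.5, 50.4 and 64.1 CPM in arsenite replicates 1, 2 and 3, against 94.4, 117 and 71.5 CPM in control replicates 1, 2 and 3. Its groups did not overlap, but it did not pass (log2 fold change -0.66 ± 0.19, adjusted p = 0.111), except with DESeq2 (adjusted p = 0.0306; 0.0306 to 0.290 over its alternatives). MpDIR35 had 36.6 ± 9.46 CPM with arsenite and 38.3 ± 11.1 CPM in controls, with overlapping groups (log2 fold change -0.06, 95% interval -0.67 to 0.54). MpDIR34, MpDIR33 and MpDIR32 were counted at 1.34 to 10.4 CPM in any library and had log2 fold changes of 0.41, -0.84 and -0.57 with overlapping groups (adjusted p = 0.510, 0.277 and 0.550). Control replicate 2 was the highest control for each gene of the run except MpDIR34, where it was the lowest. Whether the copies of this run share reads was not examined here, since the counting settings are not given and no sequences were used.

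**Figure D3:**
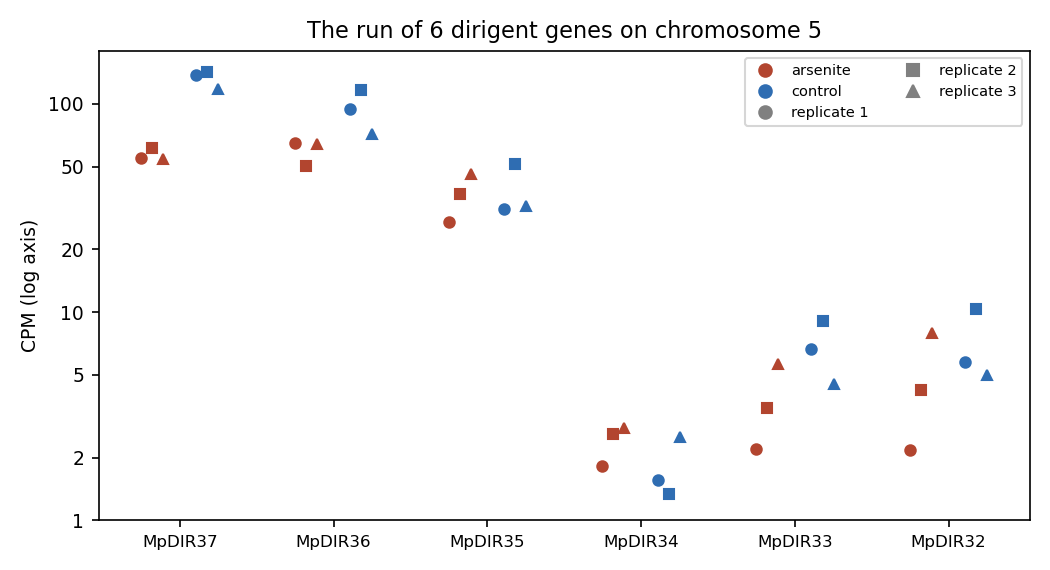
Levels in CPM (log axis) of the 6 neighbouring dirigent genes on chromosome 5, in gene order from MpDIR37, with arsenite libraries in red left of control libraries in blue and symbols by replicate number. The groups are apart for MpDIR37 and MpDIR36 and overlap for the other 4 genes.

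On the other side of MpDIR37 the next gene, Mp5g16875, had 0.219 ± 0.173 CPM with arsenite and 0.451 ± 0.0925 CPM in controls (SD, n = 3 each) and did not pass (log2 fold change -0.996 ± 0.63, adjusted p = 0.402). Among 10 genes around MpDIR37, 5 on each side, 1 passed, the histone gene MpH4e at the fifth place from it, with 92.2 ± 8.73 CPM with arsenite and 152 ± 20.1 CPM in controls (log2 fold change -0.72 ± 0.13, adjusted p = 0.0324). Of all tested genes 4.18% passed, and MpH4e was chosen after its value was seen.

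In the order of the annotated genes that were counted, MpDIR20 has no dirigent gene next to it. The nearest, MpDIR19, is the fifth gene on one side and had at most 0.0941 CPM in any library. The gene directly beside MpDIR20 on that side, Mp6g12710, rose with arsenite. It had 56.6, 66.8 and 64.5 CPM in arsenite replicates 1, 2 and 3, against 18.2, 26.3 and 22.9 CPM in control replicates 1, 2 and 3. The groups did not overlap (log2 fold change 1.48 ± 0.16, adjusted p = 0.00888). Without arsenite replicate 2 Mp6g12710 did not pass (adjusted p = 0.0618, the highest over its alternatives). The lowest adjusted p over its alternatives was 1.17e-13, with DESeq2. Mp6g12710 carries no symbol in the annotation used, and its gene span does not overlap that of MpDIR20 there. On the other side, Mp6g12670 had 28.5 ± 2.43 CPM with arsenite and 29.1 ± 3.51 CPM in controls (SD, n = 3 each; log2 difference -0.03, 95% interval -0.34 to 0.28), a sign that turned without arsenite replicate 1, control replicate 1 or control replicate 3. Of the 10 genes around MpDIR20, Mp6g12710 was the 1 that passed, beside 4.18% of all tested genes, and 2 had too few reads to test.

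**Figure D4:**
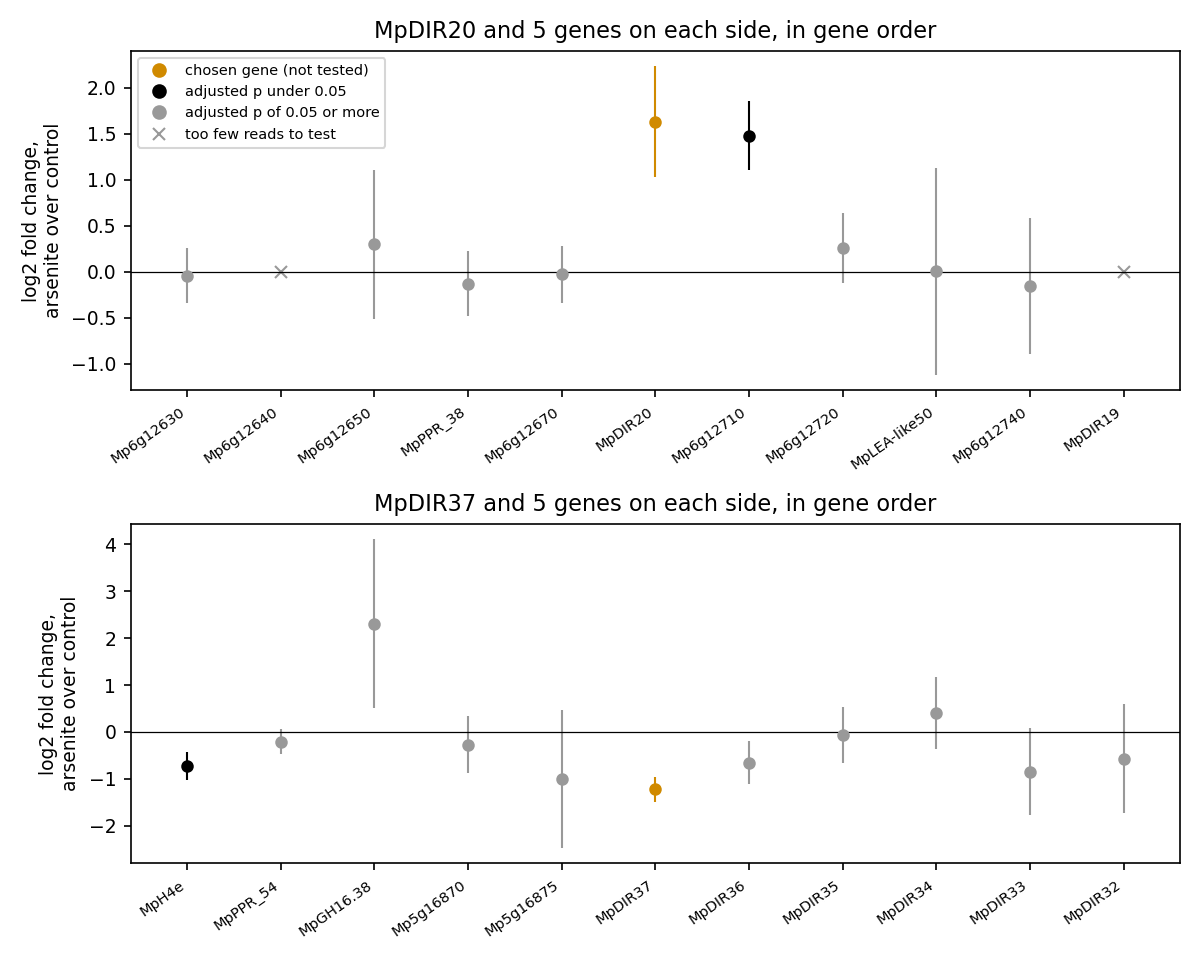
Log2 fold changes, arsenite over control, of MpDIR20 (upper panel) and MpDIR37 (lower panel) and of 5 genes on each side in gene order, with 95% intervals. Black points passed the test, gray points did not, and crosses mark genes with too few reads. Beside MpDIR20 only Mp6g12710 lies clear of 0 on the same side, at 1.48 against 1.63 for MpDIR20.

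Genes with a pattern over the 6 libraries like that of each dirigent gene were ranked by the root mean square difference of log2 CPM, centred on each gene's mean, among 2127 named genes averaging 5 CPM or more. Closest to MpDIR20 were MpCuAO1, a copper amine oxidase gene, MpUGT19, a glycosyltransferase gene, MpLOX9, a lipoxygenase gene, and the glutathione S-transferase genes MpGST12 and MpGST19. Their differences from MpDIR20 were 0.211, 0.223, 0.237, 0.263 and 0.274 log2 units, beside a median of 0.922 over all candidates. MpCuAO1 had 93.2, 140 and 135 CPM in arsenite replicates 1, 2 and 3, against 47.1, 41.1 and 50.4 CPM in control replicates 1, 2 and 3. Like MpDIR20 it was lowest among treated plants in replicate 1 and lowest among controls in replicate 2.

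Closest to MpDIR37 were MpPIN4, an auxin carrier gene, MpTRIHELIX20, of a family of transcription factors, MpGPAT6d, of a family that makes cutin precursors, the chalcone synthase-like gene MpPKS/CHS13 and the peroxidase gene MpPOD168. Their differences from MpDIR37 were 0.127, 0.148, 0.168, 0.177 and 0.180 log2 units, beside a median of 0.646. MpPIN4 had 64.9, 80.5 and 56.6 CPM in arsenite replicates 1, 2 and 3, against 176, 166 and 160 CPM in control replicates 1, 2 and 3. MpDIR20 and MpDIR37 differed from each other by 1.47 log2 units on this measure. The measure takes in both the difference between the groups and the pattern among replicates.

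Genes for enzymes of the kinds that supply and oxidise phenolic substrates were taken by symbol in 5 lists. Together, 218 of 269 genes had enough reads, of which 20 fell and 8 rose, 9.17% and 3.67%, beside 2.14% and 2.04% of all tested genes. These counts are not fully independent of the read filter, since some called peroxidases, named below, passed it only through the group where they were high. Several of the genes that fell also lie close together on chromosome 4, as given below. The median log2 fold change of the 218 was 0.02, beside -0.004 over all tested genes, with 111 positive and 107 negative. At an unadjusted p under 0.05, 43 were higher and 43 lower, while 10.8% of all tested genes were higher and 10.3% lower. With 1 library left out, in the order arsenite replicates 1 to 3 and then control replicates 1 to 3, the genes that fell numbered 14, 0, 13, 3, 4 and 8, and those that rose 2, 0, 10, 0, 1 and 0. Over all tested genes the share that rose in these fits was 1.26%, 0.117%, 1.7%, 0.242%, 0.576% and 0.388%.

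Of 16 entry enzymes of the phenylpropanoid pathway 4 fell (25%), all phenylalanine ammonia-lyases, and 1 rose (6.25%), the cinnamate hydroxylase gene MpC4H2, with a list median of -0.45. Of all tested genes 2.14% fell and 2.04% rose. At an unadjusted p under 0.05, 1 of the 16 was higher and 6 lower, beside 10.8% and 10.3% of all tested genes. MpPAL8 had 582 ± 124 CPM with arsenite and 1434 ± 113 CPM in controls (SD, n = 3 each; log2 difference -1.30 ± 0.18, adjusted p = 0.0153). MpPAL-like2 had 74.4 ± 9.99 CPM with arsenite and 207 ± 48.8 CPM in controls (log2 fold change -1.48 ± 0.19, adjusted p = 0.0130). Each of these 2 lost its call without arsenite replicate 2 (adjusted p = 0.0881 and 0.0766, the highest over their alternatives), and MpPAL8 also without control replicate 1, 2 or 3 (adjusted p = 0.0522, 0.0523 and 0.0567). MpCOMT and MpHCT, the genes found for later steps of monolignol-type synthesis, did not pass (log2 fold changes 0.35 and 0.11, adjusted p = 0.271 and 0.740), nor did either have an unadjusted p under 0.05.

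Of 132 class III peroxidases, secreted enzymes that make phenoxy radicals with hydrogen peroxide, 11 fell (8.33%) and 5 rose (3.79%), with a median of 0.11. Of all tested genes 2.14% fell and 2.04% rose. Among the called peroxidases, MpPOD67, MpPOD83 and MpPOD153 passed the read filter only through their control libraries, and MpPOD154 only through its arsenite libraries. These are the groups where they were high, so their directions are not independent of the filter. At an unadjusted p under 0.05, 27 of the 132 were higher and 24 lower, beside 10.8% and 10.3% of all tested genes. MpPOD168, also among the genes nearest to MpDIR37, had 225 ± 28.3 CPM with arsenite and 505 ± 64.5 CPM in controls (SD, n = 3 each; log2 difference -1.17 ± 0.14, adjusted p = 0.0123). MpPOD143 had 2.14 ± 0.589 CPM with arsenite and 9.50 ± 2.21 CPM in controls (log2 fold change -2.15 ± 0.29, adjusted p = 0.0143). Of 42 polyphenol oxidases, copper enzymes that oxidise phenols, 2 rose and 2 fell (4.76% each), with a median of 0.09. At an unadjusted p under 0.05, 14 of the 42 were higher and 3 lower, beside the same 10.8% and 10.3%. MpPPO37 had 26.2 ± 7.81 CPM with arsenite and 9.06 ± 2.65 CPM in controls (log2 fold change 1.54 ± 0.29, adjusted p = 0.0387), and MpPPO52 31.7 ± 3.08 CPM with arsenite and 76.3 ± 28.2 CPM in controls (log2 fold change -1.27 ± 0.25, adjusted p = 0.0407). No laccase and no lignan reductase could be picked by symbol.

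Of 26 genes of chalcone synthase-like and related enzymes, which build flavonoid and bibenzyl skeletons, 3 fell (11.5%) and 0 rose, with a median of -0.36. Of all tested genes 2.14% fell and 2.04% rose. At an unadjusted p under 0.05, 1 of the 26 was higher and 10 lower, beside 10.8% and 10.3% of all tested genes. The 3 that fell, MpPKS/CHS11, MpPKS/CHS13 and MpPKS/CHS15, lie close together by locus number on chromosome 4. MpPAL7, MpPAL-like2 and MpPAL4, among the entry enzymes that fell, lie in the same stretch. Falls in the 2 lists may therefore not be independent of each other. MpPKS/CHS13 had 17.6 ± 1.09 CPM with arsenite and 48.2 ± 9.46 CPM in controls (SD, n = 3 each; log2 difference -1.45 ± 0.16, adjusted p = 0.00888). MpPKS/CHS15 had 323 ± 51.1 CPM with arsenite and 641 ± 74.7 CPM in controls (log2 fold change -0.99 ± 0.16, adjusted p = 0.0237). Without arsenite replicate 2 MpPOD168, MpPOD143, MpPPO37, MpPPO52, MpPKS/CHS13 and MpPKS/CHS15 did not pass (adjusted p = 0.0765, 0.0637, 0.125, 0.127, 0.0654 and 0.107, the highest over the alternatives of each). MpPOD143 also lost its call without control replicate 1 or 2, MpPPO37 without any 1 library but arsenite replicate 3 and with the replicate number as a block (adjusted p = 0.0545), MpPPO52 without any 1 library but control replicate 2, and MpPKS/CHS15 without any 1 control library.

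Markers of particular cells were read beside these results, with 2.14% of all tested genes fallen and 2.04% risen. Of 5 oil body cell markers, of the cells where liverworts store terpenoids and bisbibenzyls, 2 fell (MpSYP12B and MpABCG1, adjusted p = 0.0462 and 0.0398), and the summed level of the 5 was 44.3 to 74.5 CPM in arsenite libraries and 81.5 to 117 CPM in control libraries. The largest part of this sum was MpC1HDZ, which had overlapping groups and did not pass (adjusted p = 0.253). Of 4 markers of reproductive branches and germ cells, 1 of 3 with enough reads fell, MpBNB (adjusted p = 0.0193), which had enough reads only in its control libraries. MpPRM had 1 read in all libraries together. The sum of the 4 was 8.53 to 17.6 CPM with arsenite and 17.4 to 22.2 CPM in controls, most of it MpFGMYB. This gene had 11.1 ± 4.38 CPM with arsenite and 16.0 ± 1.68 CPM in controls, with overlapping groups, and did not pass (adjusted p = 0.327). The rhizoid marker MpRSL1 had 19.5 to 22.8 CPM with arsenite and 12.1 to 14.8 CPM in controls (adjusted p = 0.0533). MpRSL2 and MpRSL3, also on the rhizoid list, were not found by symbol. The sum of 2 gemma cup and air pore markers was 111 to 147 CPM with arsenite and 90.1 to 116 CPM in controls, with 0 of 2 passing (at an unadjusted p under 0.05, 0). Most of that sum was MpNOP1, with 123 ± 18.4 CPM with arsenite and 101 ± 14.9 CPM in controls. MpMYB14, a regulator of phenolic synthesis, had 4.98 to 6.46 CPM with arsenite and 7.87 to 14.5 CPM in controls (adjusted p = 0.0963). The regulator MpMYCX, U-linked and so carried by females, had 0 reads in every library of these male plants, and MpMYCY was not found by symbol. The part of these cells in the levels of MpDIR20 and MpDIR37 was not tested.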

How the data were processed

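Each deposited file holds whole-number read counts per gene for 1 sample. The authors' file names name htseq-count on Galaxy; no source used here gives the aligner, versions, genome build, annotation or strand setting, so reads of a gene and of one on the opposite strand cannot be told apart. The MpTak2_v7.1 gene table supplied symbols and gene order, matched by the number in the locus tag (17671 of 18391 tags). Gene order, and so which genes are neighbours, took in only matched genes. Unmatched genes that may lie between them were not placed. No coordinates are given because builds may differ.

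Counts were tested with edgeR 4.0.16 in R 4.3.3 (quasi-likelihood test, TMM factors, low-count filter by group, Benjamini-Hochberg adjustment, threshold 0.05), which was tested on simulated data. DESeq2 1.42.0 and voom (limma 3.58.1) were alternatives. CPM used TMM-scaled library sizes; log2 CPM for ranking patterns had a prior count of 2. Within groups no 2 libraries differed as little as sampling noise (lowest chi-square per degree of freedom 41.4).

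MpDIR20, MpDIR37 and the lists were chosen with earlier results of these data known. Named genes were the called dirigent genes, the 6 with most reads, the genes beside each of the pair, the 5 nearest patterns and 2 genes per list with the smallest adjusted p. Runs of dirigent genes were defined after seeing the gene order.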

Additional observations from a re-analysis of the deposited data

How the results depend on the processing

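MpDIR20 had log2 fold changes of 1.43 to 1.82 and MpDIR37 of -1.30 to -1.17 over 13 alternatives each (other filters, scalings and tests, the replicate number as a block, 6 left-out libraries), and the log2 ratio of the pair differed between groups by 2.57 to 3.09 with a library left out. Other dirigent genes called higher numbered 3 with DESeq2 and 0 to 1 with a library left out. Those called lower numbered 0 at a threshold of 0.01, 7 with DESeq2, 1 with voom, and 0 to 2 with a library left out. Of 218 tested genes of the other phenolic lists, 0 were called higher at a threshold of 0.01 and 29 with DESeq2, and 1 and 35 were called lower. With a library left out, 0 to 10 were called higher and 0 to 14 lower. Of all tested genes 0.17% were higher and 0.251% lower at 0.01, and 6.34% and 5.5% with DESeq2. With a library left out, these shares were 0.117% to 1.7% higher and 0.168% to 1.67% lower. All called genes numbered 566, but 1598 with DESeq2, 364 with the block and 39 to 461 with a library left out. With the replicate number as a block, 6 other dirigent genes were called lower and 4 phenolic-list genes higher, beside 1.62% lower and 1.07% higher of all tested genes. Deviations of same-numbered libraries correlated at 0.00836, -0.111 and 0.187, and those of differently numbered libraries at -0.453 to 0.408. Whether same-numbered samples shared anything but the number cannot be told from so few libraries.

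Log2 fold changes near 0 changed sign. That of MpDIR9 was 0.0024 with RLE factors, 0.0024 with DESeq2, 0.0097 with voom, 0.020 with the replicate block and -0.11 to 0.21 with a library left out. With a library left out, MpDIR3 ran from -0.12 to 0.085, Mp6g12670 from -0.13 to 0.052 and MpHCT from -0.0086 to 0.27. The causes were not tested. The summed level of the other dirigent genes kept a log2 ratio of -0.29 to -0.16 over alternatives chosen after seeing the data. The 20 dirigent genes that did not pass the read filter were not tested.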
